A study of Drosophila melanogaster with 34 samples.

Results

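COR-018 is an inbred *D. melanogaster* strain that the study classed as sensitive to copper, and its response to copper was examined here across all genes of the strain alone. Its members are the 6 whole-body RNA-seq libraries that carry the strain's name, 3 from copper-treated and 3 from control females, of 34 libraries in the series. The study compared 6 strains of natural European origin, classed as sensitive (JUT-008, AKA-018 and COR-018) or tolerant (MUN-020, GIM-012 and MUN-008), which had been inbred for 20 generations. Copper-treated mated females were held for 24 h on filter paper soaked in 20 mM copper sulphate in a 5% sucrose solution, and control females on the same solution without copper. The sample labels give an age of 3 to 7 days, and each library was made from 20 whole females. The study prepared 4 biological replicates per strain and treatment and sequenced the 3 with the best RNA, so that COR-018 is represented by copper replicates 1, 3 and 4 and by control replicates 1, 2 and 4. Dead flies of COR-018 were removed before extraction, so the copper libraries describe the females that survived the exposure. A single strain is a single genotype, and its response cannot be told apart from what is common to sensitive strains except by comparison with them.

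Copper is both an enzyme cofactor and a poison. In flies, excess copper activates the transcription factor MTF-1, which induces metallothioneins, small cysteine-rich proteins that bind the metal, while the transporters of the Ctr1 family and ATP7 move it into and out of cells. The eggshell is made by the follicle cells that surround each oocyte: they first secrete the proteins of the vitelline membrane and then, in the last stages of oogenesis, those of the chorion, from gene clusters that are amplified in these cells. Whole-body RNA holds all of these tissues together. A lower level of a transcript can therefore reflect fewer cells of a type or less RNA per cell, and these cannot be told apart here.

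The COR-018 libraries held 33909229 to 42567920 counted reads, against 22796637 to 42567920 over the series. Replicates differed by more than sampling of reads allows, with a chi-squared value over its degrees of freedom of 13.2 to 20.6 for pairs of copper and 59.2 to 77.0 for pairs of control libraries, so each was kept as a replicate of its own. Levels are given in CPM, a gene's reads as a share of the library's total after scaling by the TMM method, and values of replicates are given in the order copper 1, 3 and 4 and control 1, 2 and 4.

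The libraries are labelled female, but some of them held male transcripts. The testis and male accessory gland lists name 57 and 72 genes of the annotation, of which the deposited counts hold only 32 and 23. Over all protein-coding genes of the annotation, 8.93% are not held. The deposited counts carry the label RMmales, and the study does not describe what was removed under it. The sums and tests below cover a part of each list, so they can understate male transcripts. Why the other genes are absent was not tested. Of the 32 and 23 genes, 3 and 5, *achi*, *Vha36-3* and *mia*, and *Acp1*, *Acp65Aa*, *EbpIII*, *Obp56e* and *Obp56g*, were left out of the sums after their values were seen. The summed level of the other 29 testis genes was 90.4, 285 and 8.51 CPM in the copper libraries, against 7.26, 8.35 and 255 CPM in the control libraries. Copper replicates 1 and 3 and control replicate 4 were thus far above the rest, and the treatments overlapped. Summed transcripts of 12 Y-linked genes followed the same libraries, at 1.49, 7.37 and 0.180 CPM after copper and 0.210, 0.165 and 6.44 CPM in controls. Transcripts of the other 18 genes of the accessory gland, which produces seminal proteins, were at 16.9, 36.8 and 1.95 CPM after copper and at 1.39, 1.27 and 226 CPM in controls. With all 32 and 23 genes, the testis sums were 122.8, 318 and 40.7 CPM after copper and 40.0, 40.4 and 288 CPM in controls, and the accessory gland sums 361, 352 and 325 CPM after copper and 420, 310 and 639 CPM in controls. For the 18 genes control replicate 4 stood apart from all others, although its testis and Y-linked levels were close to those of copper replicate 3. The *roX* RNAs, which act in male dosage compensation, gave 11.4, 20.3 and 6.07 CPM after copper and 7.89, 7.14 and 15.1 CPM in controls. A two-sided exact permutation test over the 6 libraries gave p = 0.5 for the 29 and for all 32 testis genes, 0.8 for the 18 and 0.4 for all 23 accessory gland genes, and 0.7 for Y-linked genes and for *roX*. Since 0.1 is the smallest p that 3 against 3 libraries allow, no list could have reached 0.05. The test therefore cannot decide whether the treatments differed. Among the tested genes of the male lists edgeR called none differentially expressed. At an unadjusted p-value below 0.05 there were 2 of 26 tested testis genes and 2 of 14 of the accessory gland list. Over all 11306 tested genes there were 4832. DESeq2 called 2 of the gland's list lower, *Acp65Aa* and *Obp56g*, and expression of *Obp56g* is not restricted to that gland. *Acp65Aa* and *Acp1* are adult cuticle protein genes that are on the list through their symbol, so they do not report on the gland. Control replicate 4 also stood apart for *Fbp1*, a fat body protein of the larva, at 42.2 CPM, against 0.432, 0.239 and 0.848 CPM after copper and 0.131 and 0.236 CPM in the other controls. For these reasons, the counts below are also given without control replicate 4 and for the 3 libraries in which Y-linked transcripts were near 0, copper replicate 4 against control replicates 1 and 2.

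**Figure D1:**
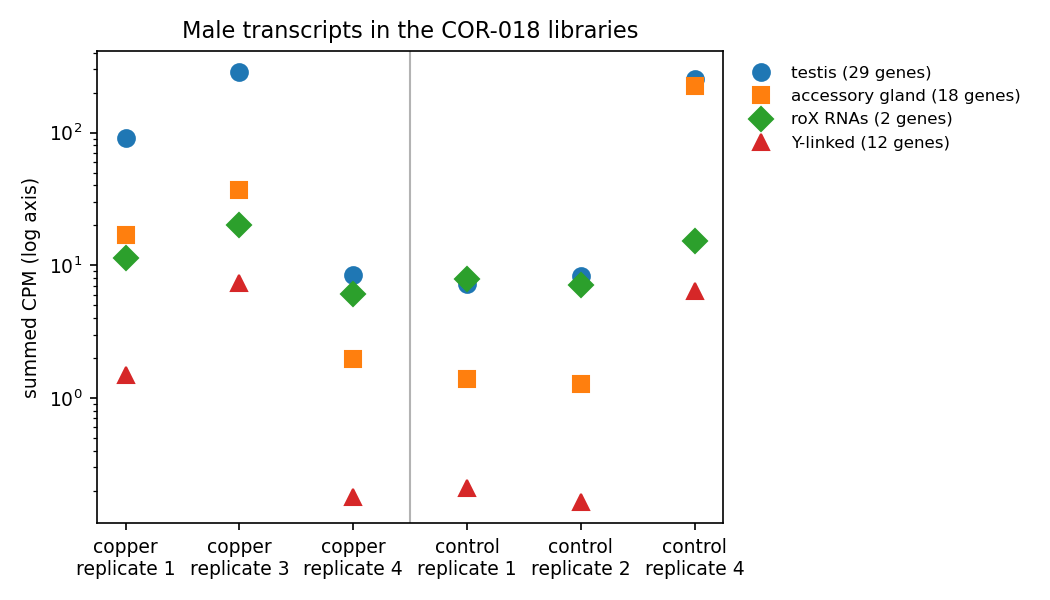
Summed CPM on a log axis of testis, accessory gland, *roX* and Y-linked genes in each COR-018 library, with the 3 copper libraries to the left of the line and the 3 control libraries to the right. Testis transcripts lie between 90.4 and 285 CPM in copper replicates 1 and 3 and control replicate 4 and below 10 CPM in the others.

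In COR-018 more genes were called lower than higher after copper, with levels measured as shares of each library. Of 11306 genes tested, 249 (2.20%) were higher and 924 (8.17%) lower after copper, as differentially expressed genes (DEGs) with a fold change over 1.5 and an adjusted p-value below 0.05 (quasi-likelihood test of edgeR, Benjamini-Hochberg adjustment). On the log2 scale 175 DEGs were below -2 and 64 above 2, and 56 were below -4 and 6 above 4. By the adjusted p-value alone, 1279 genes (11.3%) were higher and 1699 (15.0%) lower, a smaller imbalance than with the fold change. The median log2 fold change over all tested genes was 0.02, so that the body of the distribution was centred near 0. In each of the 1173 DEGs the 3 copper libraries did not overlap the 3 control libraries, which was also so for 25.0% of all tested genes in the direction of an increase and 25.6% in that of a decrease. Without control replicate 4, 266 genes (2.33%) were higher and 873 (7.66%) lower, of which 210 and 783 were among the DEGs above. In the 3 libraries with Y-linked transcripts near 0, 140 (1.25%) were higher and 366 (3.27%) lower, of which 119 and 345 were among them, with the single copper library assumed to vary as the controls did. A fit with the summed testis transcripts as a covariate gave 292 (2.58%) higher and 998 (8.83%) lower. Both of the last settings were chosen after the male transcripts had been seen. The covariate planned beforehand, the summed level of all 23 accessory gland genes, gave 282 higher and 760 lower. With it 10 of the 135 named genes called in COR-018 lost their call, against 2 with the testis covariate. Leaving out a copper library gave 113 higher and 417 lower without copper replicate 1, 146 and 435 without replicate 3, and 148 and 455 without replicate 4. Among the DEGs, 223 of those higher and 872 of those lower were protein-coding. Of 63 tested snoRNA genes 15 were lower, against 8.17% of all tested genes.

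**Figure D2:**
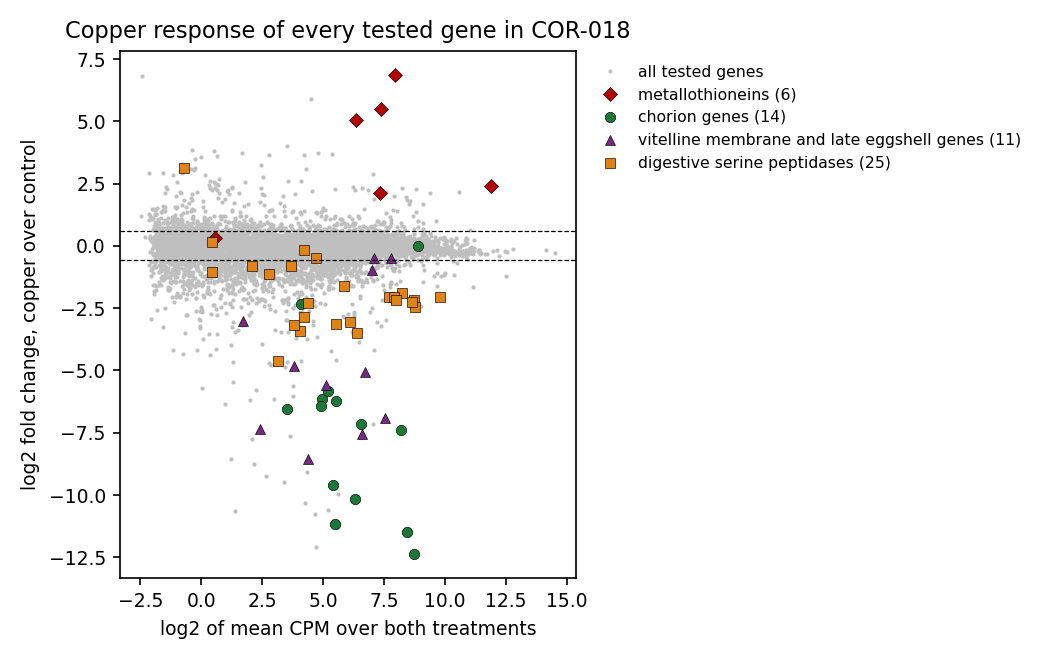
Log2 fold change (copper over control) of each of the 11306 tested genes in COR-018 against the log2 of its mean CPM over both treatments, with dashed lines at a fold change of 1.5 in each direction. Metallothioneins (6) lie at the top, apart from *MtnF*, chorion (14) and vitelline membrane (11) genes reach down to -12.36, and most digestive serine peptidases (25) lie between -1 and -5.

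The response differed from that of the other strains in many of these genes. The log2 response of COR-018 was below the mean of the other 5 strains in 811 of 12511 genes (6.48%) and above it in 228 (1.82%), by a contrast within one edgeR model of all 34 libraries with 12 strain and treatment groups (adjusted p-value below 0.05). Of the 924 genes lower in COR-018, 648 also had a response below that of the other strains, and of the 249 higher, 105 had one above it. Without copper replicate 3 the 811 were 487, and the 228 were 130, 143 and 128 without copper replicate 1, copper replicate 3 and control replicate 1. Against the other sensitive strains alone, AKA-018 and JUT-008, 259 genes (2.07%) were below and 85 (0.679%) above. In JUT-008, 343 of 11021 tested genes (3.11%) were lower and 110 (0.998%) higher. Of these, 278 were also lower in COR-018, 30.1% of the COR-018 decreases and 81.1% of those of JUT-008, and 73 were also higher, 29.3% and 66.4%. AKA-018, with 637 genes (5.47%) lower and 111 (0.953%) higher of its own, shared 140 decreases (15.2% and 22.0%) and 44 increases (17.7% and 39.6%). Of the COR-018 decreases, 575 passed the same thresholds in no other strain, as did 114 of the increases. In the tolerant GIM-012, which had 384 genes higher (3.47%) and 238 lower (2.15%), 90 of the COR-018 increases and 8 of its decreases were shared, and 26 genes that were lower in COR-018 were higher there. MUN-020, with 220 genes higher (1.98%) and 250 lower (2.24%), shared 22 and 128, and MUN-008, with 48 higher (0.445%) and 75 lower (0.696%), shared 24 and 62.

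The largest decreases were in genes of the eggshell and in genes known only by a number, which were close to 0 after copper. *Cp38* (FBgn0000360, X:8481837-8483311), which encodes a structural protein of the chorion, was at 0.162, 0.186 and 0.129 CPM in the copper libraries, against 454, 453 and 1648 CPM in the control libraries. The 3 copper libraries lay close together and far below the lowest control library. Its log2 fold change was -12.36 ± 0.99 (SE, adjusted p = 0.00196, edgeR, n = 3 each), and it was called without each single library in turn. *Cp36*, its neighbour and also a chorion protein gene, was at 0.135, 0.266 and 0.308 CPM after copper, against 404, 378 and 1296 CPM in controls (log2 fold change -11.49 ± 0.89). In both genes control replicate 4 was the highest control, and without it the log2 fold change of *Cp38* was -11.45.

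In the other strains *Cp38* transcripts stayed at measurable levels. *Cp38* was between 153 and 874 CPM in every copper library of the other 5 strains, against 269 to 1219 CPM in their controls, on a scale common to all 34 libraries on which COR-018 copper libraries were at 0.123 to 0.177 CPM. This did not hold for every chorion gene. On the same scale the lowest copper library for *Cp18* was at 2.11 CPM in AKA-018 and 2.77 CPM in GIM-012, against medians of 150 and 66.1 CPM there. The COR-018 copper libraries were at 0.984 to 1.65 CPM for *Cp18*. The log2 response of *Cp38* was -0.84 in MUN-020, -0.63 in GIM-012, -1.13 in MUN-008, -2.15 in AKA-018 and -2.27 in JUT-008. The difference between the response of COR-018 and their mean was -10.95 ± 0.79 on the log2 scale (adjusted p = 2.4e-09 in edgeR's quasi-likelihood test), and that of *Cp36* was -10.17 ± 0.75 (adjusted p = 2.4e-09).

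The remaining chorion genes fell with them. Of the 14 genes on the chorion list, 13 were lower after copper and none higher, with a median log2 fold change of -6.85, against 8.17% lower and a median of 0.02 over all tested genes. All 13 also had a response below that of the other strains. The cluster on the X chromosome (dm6, X:8470888-8483311) holds *Cp7Fa*, *Cp7Fb*, *Cp7Fc*, *Cp36* and *Cp38*. Its other members also had low levels after copper, with *Cp7Fb* at 0.513, 0.798 and 0.720 CPM after copper and 65.8, 40.4 and 71.0 CPM in controls (log2 fold change -6.44 ± 0.31, adjusted p = 0.00064). *Cp7Fa* and *Cp7Fc* had log2 fold changes of -6.15 and -5.82. The copper libraries of all these genes lay below the control libraries without overlap.

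The cluster on chromosome 3L (dm6, 3L:8726791-8732599) holds *Cp18*, *Cp15*, *Cp19* and *Cp16*, chorion genes of the last stages of oogenesis. *Cp19* was at 0.135, 0.133 and 0.129 CPM after copper, against 47.6, 122 and 299 CPM in controls (log2 fold change -10.17 ± 1.13, adjusted p = 0.00421). *Cp16* followed with -9.59, while *Cp15* (-7.40) and *Cp18* (-7.15) kept a low level after copper. *Cp15* was at 4.81, 1.6 and 3.88 CPM after copper, against 854, 264 and 615 CPM in controls. Within the cluster, control replicate 4 was highest for *Cp19* and *Cp16* but not for *Cp15* and *Cp18*, so the chorion genes did not vary together among the controls.

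Other members of the chorion list act on the shell or are bound to it. *yellow-g2*, a member of the yellow family that is needed for a rigid eggshell, was at 0.0270, 0.0532 and 0.0257 CPM after copper, 4 reads in all, against 63.0, 50.4 and 155 CPM in controls (log2 fold change -11.18 ± 0.88). Its neighbour in the family, *yellow-g*, fell by 6.22, *Femcoat* by 6.55 and *Muc12Ea* by 2.35 on the log2 scale. The member that did not pass the test was *Pxt*, a peroxidase-like enzyme that acts in follicle maturation, at 500, 451 and 482 CPM after copper and 484, 501 and 462 CPM in controls (log2 fold change -0.01 ± 0.06, adjusted p = 0.892). *dec*, the defective chorion gene, was not on the list and was looked up afterwards. It was at 1.97, 1.65 and 1.95 CPM after copper, against 218, 80.0 and 492 CPM in controls (log2 fold change -7.14 ± 0.83, adjusted p = 0.00487).

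The vitelline membrane genes are expressed before those of the chorion. Of 11 genes on their list, 9 were lower (81.8%, against 8.17% of all tested genes), with a median log2 fold change of -5.07, and 8 had a response below that of the other strains. *Vm32E* was at 0.0810, 0.186 and 0.0514 CPM after copper, against 33.3, 9.24 and 80.5 CPM in controls (log2 fold change -8.55 ± 1.17, adjusted p = 0.00776). The 3 genes of the cluster on chromosome 2L (dm6, 2L:5957004-5960340) were reduced to different levels, with *Vm26Ac* at -7.36, *Vm26Aa* at -6.91 and *Vm26Ab* at -5.07. *Vm26Ab* was at 5.62, 3.08 and 9.69 CPM after copper, against 181, 85.8 and 352 CPM in controls. Among both treatments copper replicate 3 and control replicate 2 were the lowest libraries for *Vm26Aa*, *Vm26Ab* and *Vm34Ca*, and copper replicate 4 and control replicate 4 the highest. *Vm34Ca* (-7.55), *Vml* (-5.59), *psd* (-4.81), which encodes palisade, and the follicle cell gene *Fcp3C* (-3.01) were also lower.

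Genes of the same list that act in other ways were less reduced. *fs(1)M3* fell by 0.98 on the log2 scale, while *clos* (-0.49, adjusted p = 0.00389) and *fs(1)N* (-0.47) passed the adjusted p-value but not the fold change. These genes are known for their part in signalling from the eggshell to the embryo's ends. With each library left out in turn, 12 to 13 chorion genes and 3 to 9 vitelline membrane genes were lower, and the 3 were found without copper replicate 1. In the 3 libraries with Y-linked transcripts near 0, these counts were 13 and 7.

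**Figure D3:**
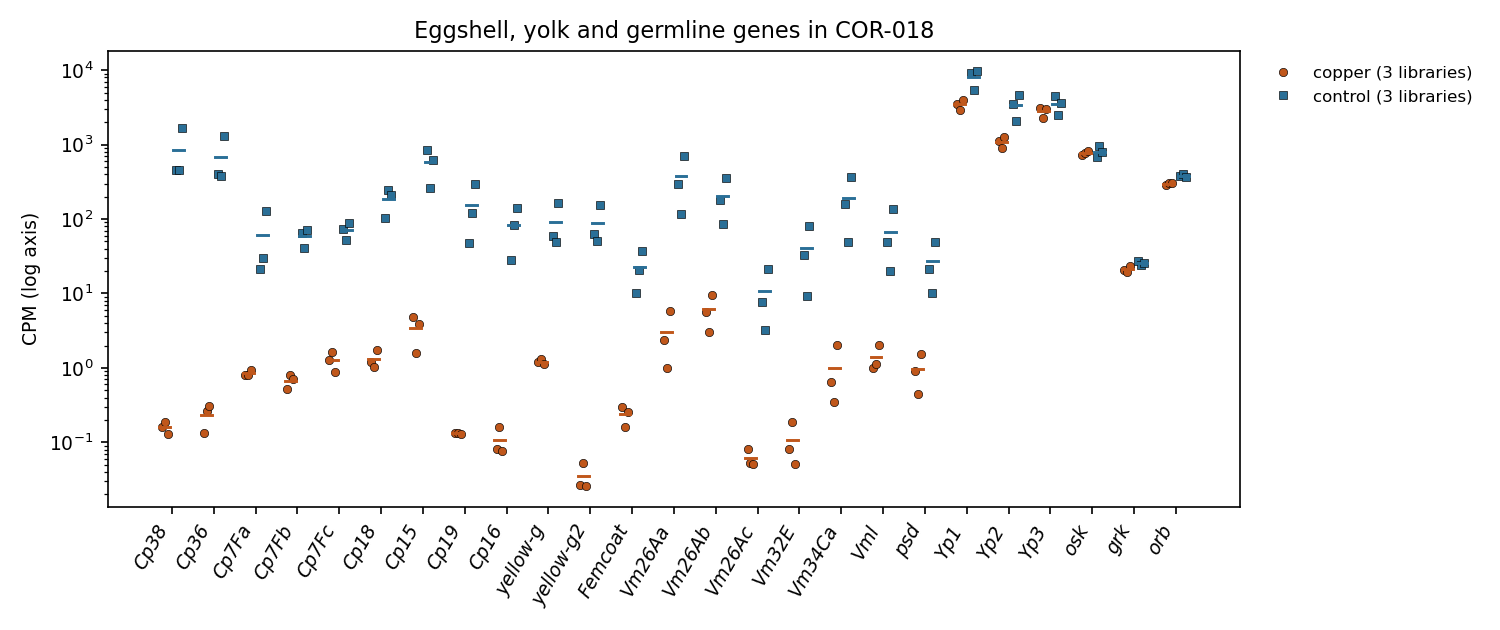
CPM on a log axis of eggshell, yolk and female germline genes in the 3 copper libraries (circles) and the 3 control libraries (squares) of COR-018, with a bar at each mean. The chorion and vitelline membrane genes are widely separated between treatments, *Yp1* and *Yp2* by less, *orb* and *grk* by little, and *Yp3* and *osk* overlap.

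Several of the largest decreases were in genes that the annotation knows only by a number. *CG11381* (X:1203777-1205433) had 1 read over the 3 copper libraries, against 36.0, 33.4 and 88.8 CPM in controls, 5737 reads in all. The ratio of control to copper is 5725, with a 95% counting interval of 1027 to 226100. *CG15571* had no read in any copper library and 2.02, 2.73 and 11.0 CPM in controls, which makes it at least 185.9-fold lower after copper when 3 reads over the group are taken as the floor. *CG13083* and *CG14309* had 3 reads each after copper, with ratios of 1836 (627.9 to 8906) and 1327 (453.7 to 6436). *CG14309* varied among controls, at 35.4, 5.16 and 72.9 CPM, and like *CG15571* it lost its call when any one of the copper libraries was left out, although its log2 fold change stayed below -9. *CG13114* was at 0.0540, 0.0266 and 0.0257 CPM after copper and at 63.7, 55 and 171 CPM in controls, and *CG4009* at 0, 0.0798 and 0.0514 CPM against 48.9, 42.6 and 128 CPM. The files and the annotation give no function for these genes, and control replicate 4 was the highest control library in all of them, as it was in *Cp38*.

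Yolk genes fell less, and no germline gene was called. The yolk proteins are made in the fat body and the follicle cells and are taken up by the oocyte. *Yp1* was at 3558, 2920 and 4005 CPM after copper, against 9239, 5384 and 9616 CPM in controls (log2 fold change -1.21 ± 0.24, adjusted p = 0.0191). *Yp2* was at 1131, 904 and 1256 CPM against 3474, 2060 and 4703 CPM (-1.64 ± 0.31, adjusted p = 0.0163). In both, the copper libraries lay below the controls, and control replicate 2 was the nearest to them. *Yp3* overlapped between treatments, at 3117, 2257 and 3057 CPM after copper and 4501, 2489 and 3646 CPM in controls (-0.34 ± 0.23, adjusted p = 0.319). With *apolpp*, the precursor of the main lipid carrier of the blood, 3 of 8 genes of yolk supply and uptake were lower (37.5%, against 8.17% of all tested genes), and none of these 3 calls was made without copper replicate 1, 3 or 4.

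None of 13 female germline genes was called by edgeR or DESeq2, with a median log2 fold change of -0.05. At an unadjusted p-value below 0.05 there were 5, against 4832 of all 11306 tested genes. The same 5 passed edgeR's adjusted p-value alone, 4 lower and 1 higher, against 15.0% and 11.3% of all tested genes. *osk*, which localises the germ plasm of the oocyte, was at 720, 772 and 821 CPM after copper, against 680, 950 and 795 CPM in controls (-0.07 ± 0.13, adjusted p = 0.73). *orb*, a regulator of oocyte messages, was lower without overlap, at 289, 304 and 303 CPM after copper and 374, 404 and 370 CPM in controls (-0.36 ± 0.06, adjusted p = 0.0104), below the fold change asked for. Of 16 genes of DNA replication and the cell cycle, 8 passed the adjusted p-value alone in the direction of an increase, against 11.3% of all tested genes. The median of the 16 was 0.30, and none was called with the fold change by edgeR or DESeq2. At an unadjusted p-value below 0.05 there were 12 of the 16, against 4832 of all 11306 tested genes. *Mcm2*, a subunit of the replicative helicase, was at 211, 209 and 213 CPM after copper and 163, 187 and 164 CPM in controls (0.30 ± 0.07).

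Genes of ovulation, sperm storage and steroid synthesis were partly lower. *Send1*, a peptidase gene of the spermathecal secretory cells, was at 20.1, 16.4 and 26.4 CPM after copper, against 138, 82.5 and 174 CPM in controls (-2.65 ± 0.32, adjusted p = 0.00537), and its response was below that of the other strains by -1.92 (adjusted p = 2.5e-05). With *Est-6* (-1.07) and *Nep2* (-0.79), 3 of 10 genes of this list were lower (30.0%, against 8.17% of all tested genes). Of 21 genes of ecdysone and juvenile hormone, *spo* (-2.29) and *sad* (-1.55), enzymes of ecdysone synthesis, and *Jheh3* (-0.63), a juvenile hormone epoxide hydrolase, were lower (14.3%, against 8.17% of all tested genes). *spo* was at 1.51, 1.01 and 1.28 CPM after copper, against 6.50, 3.51 and 8.70 CPM in controls. Of these 6 genes only *Send1* was called without each library in turn.

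Metallothioneins rose strongly. Of the 6 genes of the family, 5 were higher, with a median log2 fold change of 3.73 over the 6, against 2.20% of all tested genes higher. *MtnA* was at 6356, 6422 and 6375 CPM after copper, against 1127, 952 and 1582 CPM in controls (2.39 ± 0.19, adjusted p = 0.00189). *MtnB* was at 531, 444 and 492 CPM against 6.19, 1.39 and 5.12 CPM, a 117-fold increase (6.87 ± 0.51, adjusted p = 0.00162). The copper libraries were close to each other and far above the controls in both. *MtnD* had 344, 297 and 331 CPM after copper and 5.48, 5.89 and 10.4 CPM in controls (5.49 ± 0.27), and *MtnE*, which lies beside it (dm6, 3R:20534021-20535301 for the pair), had 169, 132 and 175 CPM against 3.17, 5.56 and 5.51 CPM (5.06 ± 0.24). *MtnC* (2.13 ± 0.15) was at 267, 246 and 282 CPM after copper and 48.2, 60.4 and 72.5 CPM in controls. *MtnF* did not pass the test, at 1.27, 3.03 and 0.591 CPM after copper and 0.734, 0.731 and 2.5 CPM in controls (0.31 ± 0.76, adjusted p = 0.802), and its highest library in each treatment was one with male transcripts.

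Between strains, *MtnE* was the only metallothionein whose response differed from the mean of the others (1.21 ± 0.34 above it, adjusted p = 0.0259). *MtnB* (1.30 ± 0.46, adjusted p = 0.081) and *MtnD* (0.95 ± 0.32, adjusted p = 0.065) were above it without passing the test. For *MtnE* the lowest response among the other strains was that of MUN-020, 1.85, and the others lay between 3.72 and 4.65. The 5 calls in COR-018 were made without each library in turn.

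None of 9 genes of copper transport and regulation was called in either direction by edgeR or DESeq2, with a median of -0.03. At an unadjusted p-value below 0.05 there were 3, against 4832 of all 11306 tested genes. *Ctr1A*, the main copper importer, was at 38.1, 36.4 and 37.1 CPM after copper and 40.3, 41.4 and 40.8 CPM in controls (-0.13 ± 0.04, adjusted p = 0.0648). *Ctr1B*, a copper importer of the gut, was at 4.03, 3.14 and 3.19 CPM against 5.95, 4.36 and 4.76 CPM (-0.54 ± 0.19, adjusted p = 0.0802). Both lay below the controls without overlap. *ATP7*, the copper exporter (-0.01 ± 0.05), *Atox1*, its chaperone (-0.01 ± 0.06), and *MTF-1* (-0.03 ± 0.04) overlapped between treatments. Of the genes for other metals, the zinc importers *Zip42C.1* and *Zip42C.2* were lower. *Zip42C.1* was at 0.0540, 0.0532 and 0.0514 CPM after copper, against 1.34, 0.801 and 1.23 CPM in controls (-4.33 ± 0.35, adjusted p = 0.00205), and *Zip42C.2* at 0.351, 0.160 and 0.231 CPM against 3.80, 3.42 and 1.48 CPM (-3.53 ± 0.50). Both responses were below the mean of the other strains (adjusted p = 0.0261 and 0.0244). The ferritin subunits *Fer1HCH* (0.26) and *Fer2LCH* (0.29) were above the controls without passing the test (adjusted p = 0.0832 and 0.0938).

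**Figure D4:**
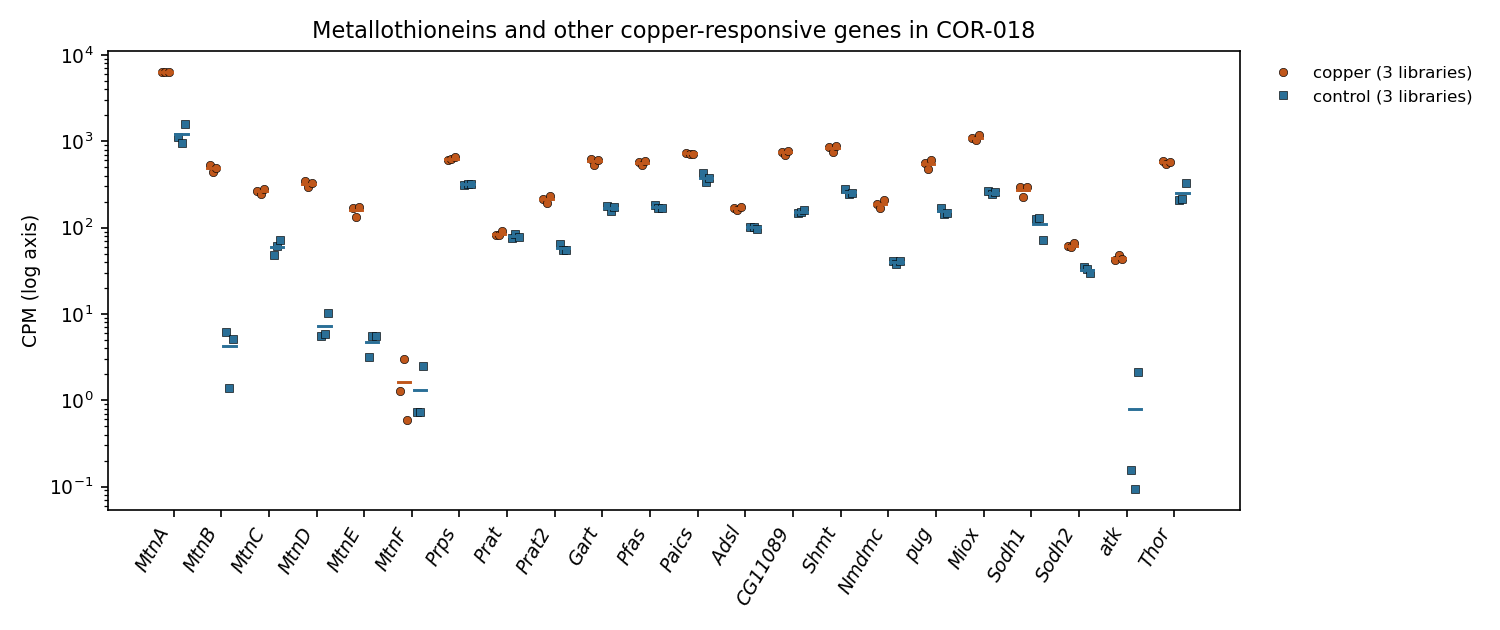
CPM on a log axis of metallothioneins and of genes of purine synthesis, one-carbon metabolism, sugar alcohols and stress in the 3 copper libraries (circles) and the 3 control libraries (squares) of COR-018, with a bar at each mean. In *MtnB*, *MtnD* and *MtnE* the treatments are separated by more than 1 power of 10, in the purine genes apart from *Prat* by less, and *MtnF* and *Prat* overlap.

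By the test of the difference from the other strains, the lowest p-value among responses above them was that of *Pfas*, an enzyme of purine synthesis. *Pfas* was at 575, 535 and 585 CPM after copper, against 183, 170 and 171 CPM in controls (1.70 ± 0.06, adjusted p = 0.00043), and its response was 1.27 ± 0.12 above the mean of the other strains (adjusted p = 7.6e-08). *Prat2*, which makes the first committed step of the same pathway, was at 214, 194 and 231 CPM against 64.8, 54.3 and 54.7 CPM (1.88 ± 0.10), and exceeded the other strains by 1.67 ± 0.20 (adjusted p = 3.9e-06). The other 3 of the 5 lowest p-values were those of *Bcat*, the transaminase of branched-chain amino acids, of the maltase gene *Mal-B2* and of *CG11842*. *Mal-B2* was at 2527, 2397 and 2562 CPM after copper and 631, 478 and 581 CPM in controls (2.15 ± 0.11), and *Bcat* at 262, 253 and 270 CPM against 49.0, 42.7 and 65.1 CPM (2.33 ± 0.16). In all 5 genes the treatments were separate by a wide margin.

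The rest of the purine pathway was looked up after these values were seen, so its members are given as a description. *Prps*, which makes the sugar phosphate that starts the pathway, had a log2 fold change of 0.99, *Gart* of 1.80, *Paics* of 0.93, *Adsl* of 0.74 and *CG11089*, which carries the last steps to IMP, of 2.27. *Gart* was at 627, 530 and 615 CPM after copper, against 177, 158 and 175 CPM in controls. *CG11089* was at 752, 700 and 775 CPM against 147, 153 and 161 CPM. *Prat*, the paralogue of *Prat2*, overlapped between treatments (0.08 ± 0.07, adjusted p = 0.378), and *ras*, the IMP dehydrogenase that leads on to guanine nucleotides, was lower by the adjusted p-value alone, at 180, 175 and 186 CPM after copper and 218, 216 and 205 CPM in controls (-0.24 ± 0.05, adjusted p = 0.0211). JUT-008 showed the nearest values, with 1.06 for *Pfas*, 1.67 for *Prat2*, 1.46 for *Gart* and 1.97 for *CG11089*, while MUN-020 had 0.22, -0.94, 0.08 and 0.41 for the same genes.

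Purine synthesis draws on glycine and on one-carbon units, and genes of these routes were also higher. *Shmt*, which turns serine into glycine, was at 850, 742 and 891 CPM after copper, against 284, 246 and 251 CPM in controls (1.67 ± 0.09, adjusted p = 0.00081). *Nmdmc*, an enzyme of the mitochondrial folate cycle, was at 190, 168 and 211 CPM against 40.6, 37.5 and 41.1 CPM (2.26 ± 0.10, adjusted p = 0.00064). *pug*, its cytosolic counterpart, had a log2 fold change of 1.84, *aay*, which makes the last step of serine synthesis, of 1.44, and *Sardh*, the sarcosine dehydrogenase, of 2.22. *Gnmt*, which methylates glycine and was on the list of insulin and starvation genes, was at 186, 257 and 250 CPM after copper, against 33.2, 19.4 and 42.3 CPM in controls (2.87 ± 0.30, adjusted p = 0.00369). *Ts*, the thymidylate synthase, reached 0.28 ± 0.05 (adjusted p = 0.0151), below the fold change asked for. *Sardh* and *Gnmt* did not differ from the mean response of the other strains by the test (adjusted p = 0.54 and 0.073), whereas *Shmt*, *Nmdmc*, *pug* and *aay* exceeded it (adjusted p = 2.9e-05 to 0.0045).

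The largest increases outside the metallothioneins came from genes of several kinds. *atk*, which encodes an extracellular protein of sensory organs, was at 42.5, 47.7 and 43.1 CPM after copper, against 0.157, 0.0943 and 2.14 CPM in controls (5.89 ± 0.86, adjusted p = 0.00902). It was high in every copper library, its call was lost without copper replicate 1 (adjusted p = 0.0535), its log2 fold change was 8.45 without control replicate 4, and its response in JUT-008 was 5.65. *Tdh*, the threonine dehydrogenase, was at 32.1, 33.8 and 38.4 CPM against 2.33, 2.05 and 3.97 CPM (3.65 ± 0.26, adjusted p = 0.00155). *BaraB*, of the baramicin family, was at 17.5, 20.8 and 26.7 CPM after copper and 0.734, 2.08 and 1.2 CPM in controls (4.01 ± 0.40), and exceeded the other strains by 2.53 (adjusted p = 4.6e-05). *lncRNA:CR44138* (3.69), *CG12826* (3.66) and *CG10182* (3.25) complete the 10 together with *GstD5*, *MtnB*, *MtnD* and *MtnE*, and the treatments were separate in each of them. *CG10182* lost its call without control replicate 1 or any one of the copper libraries.

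Enzymes of detoxification changed in part. Of 35 glutathione S-transferase genes, 4 were higher, all of the GstD cluster (11.4%, against 2.20% of all tested genes), and 2 lower (5.71%, against 8.17%). *GstD5* was at 48.5, 75.1 and 30.1 CPM after copper, against 4.27, 3.70 and 3.52 CPM in controls (3.74 ± 0.36, adjusted p = 0.00308), and *GstD2* at 37.1, 45.8 and 24.0 CPM against 6.24, 2 and 4.33 CPM (3.09 ± 0.45). *GstD6* (3.55) and *GstD4* (2.56) were low in both treatments but separate. *GstD1*, of the same cluster, passed the adjusted p-value only (0.31 ± 0.05, adjusted p = 0.0116). In *GstD2*, *GstD5* and *GstD6* copper replicate 4, the copper library with male transcripts near 0, was the lowest of the 3, and the part of male transcripts in this was not tested. Of 82 cytochrome P450 genes 6 were higher (7.32%, against 2.20%) and 13 lower (15.9%, against 8.17%). The lower ones were led by *Cyp313a1* (-2.43) and *Cyp4ac2* (-2.31), and the higher ones by *Cyp6a8*, at 147, 150 and 160 CPM after copper and 65.6, 32.3 and 64.8 CPM in controls (1.49 ± 0.27). *Cyp6a8* lost its call without any one of the copper libraries, and with a library left out 0 to 7 genes of the family were higher and 6 to 13 lower. None of 19 antioxidant genes was called by edgeR or DESeq2. Among them 9 had an unadjusted p-value below 0.05, against 4832 of all 11306 tested genes.

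Of 18 heat shock genes *Hsp26* alone was called, and it was higher (5.56% of the list, against 2.20% of all tested genes). It was at 591, 464 and 525 CPM after copper and 332, 320 and 333 CPM in controls (0.68 ± 0.09), while *Hsp70Aa* stayed under 1 CPM in all 6 libraries. *Thor*, the repressor of translation initiation, was the single gene called of 18 in the unfolded protein and integrated stress response (5.56% higher, against 2.20% of all tested genes). It was at 597, 551 and 570 CPM after copper and 208, 212 and 328 CPM in controls (1.2 ± 0.19, adjusted p = 0.0105), its call was lost without copper replicate 1 (adjusted p = 0.054), and its response was 1.22 ± 0.21 above the mean of the other strains (adjusted p = 2.9e-04). On the scale common to all libraries its mean also rose in JUT-008, to 354 CPM from 185 CPM in controls, and in GIM-012, to 222 from 168 CPM. After copper its mean was lower in AKA-018 (335 against 428 CPM), MUN-008 (252 against 295 CPM) and MUN-020 (224 against 407 CPM). *TotM*, a humoral stress peptide, was at 550, 704 and 374 CPM after copper and 112, 108 and 204 CPM in controls (1.94 ± 0.34), and its call was lost without copper replicate 1 or 3. *Ets21C*, a transcription factor of JNK signalling, was at 10.1, 11.4 and 5.94 CPM against 2.12, 1.81 and 2.53 CPM (2.09 ± 0.28). Copper replicate 4 was again the lowest copper library in both.

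Of 44 humoral immune genes 3 were higher (6.82%, against 2.20% of all tested genes) and 9 lower (20.5%, against 8.17%). The drosomycin-like genes moved in both directions: *Drsl2* was at 1.14, 1.17 and 1.70 CPM after copper and 0.105, 0.0943 and 0.271 CPM in controls (3.08 ± 0.50), and *Drsl4* at 5.38, 6.86 and 6.22 CPM against 58.0, 34.5 and 19.4 CPM (-2.60 ± 0.40). *Drsl3* was higher (3.80 ± 1.05) and *Drsl5* lower (-1.46). Without one library 0 to 3 genes of this list were higher and 1 to 12 lower, so these counts move with single libraries.

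Digestive peptidases were also lower. The Jonah and trypsin genes encode serine peptidases that the midgut secretes to digest protein. Of 25 tested, 18 were lower (72.0%, against 8.17% of all tested genes) and 1 higher, with a median log2 fold change of -2.07, and 18 of 26 had a response below that of the other strains (6.48% of all genes). *Jon65Aiv* was at 147, 115 and 148 CPM after copper, against 794, 638 and 806 CPM in controls (-2.45 ± 0.14, adjusted p = 0.00092). *thetaTry* was at 15.3, 9.36 and 16.3 CPM against 167, 154 and 140 CPM (-3.49 ± 0.22, adjusted p = 0.00118), and *Jon99Fi* at 0.648, 0.532 and 0.874 CPM against 21.1, 9.43 and 20.3 CPM (-4.62 ± 0.40). In these 3 genes copper replicate 3 was the lowest library. The abundant *alphaTry* was at 335, 297 and 399 CPM after copper, against 1923, 1360 and 1001 CPM in controls (-2.06 ± 0.26). The exception was *Jon66Cii*, at 0.973, 1.22 and 1.13 CPM after copper and 0.0524, 0.0236 and 0.301 CPM in controls (3.15 ± 0.85, adjusted p = 0.0421), and its log2 response in the other strains was 1.15 to 3.40. Summed over the 27 genes of the family in the table, 1322, 1048 and 1567 CPM after copper stood against 7072, 4858 and 5554 CPM in controls. Without one library 13 to 19 members were lower, and 15 in the 3 libraries with Y-linked transcripts near 0. Several of these genes are near copies of each other, and since reads that mapped to more than 1 place were discarded, the level of single members is less certain than that of the family.

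The other strains gave lower medians for this family as well, at -1.35 in AKA-018, -1.13 in JUT-008, -0.64 in MUN-020 and -0.55 in MUN-008, but GIM-012 gave 0.59. Lipases were called in both directions, with 5 of 18 lower (27.8%, against 8.17% of all tested genes) and 5 higher (27.8%, against 2.20%). The 5 lower were 2 without copper replicate 1, and the 5 higher were 3 without any one of the copper libraries and 2 in the 3 libraries with Y-linked transcripts near 0. *mag*, the magro lipase of the gut, was at 14.8, 10.7 and 16.1 CPM after copper, against 107, 110 and 78.5 CPM in controls (-2.83 ± 0.20, adjusted p = 0.00155). *bmm*, the brummer lipase that releases stored fat, was at 297, 284 and 312 CPM against 133, 137 and 135 CPM (1.14 ± 0.05, adjusted p = 0.00064). It exceeded the other strains by 0.55 ± 0.10 (adjusted p = 5.9e-04). *CG5966* was at 491, 492 and 548 CPM after copper and 144, 69.8 and 91.7 CPM in controls (2.33 ± 0.27), with responses between 2 and 2.16 in all other strains. Of 22 genes of the peritrophic matrix and chitin, 6 were lower (27.3%, against 8.17% of all tested genes) and 1 higher (4.55%, against 2.20%). With a library left out, 4 to 6 were lower and 0 to 4 higher. *Peritrophin-15a*, a protein of the gut lining, was at 10.1, 9.12 and 11.2 CPM after copper, against 37.9, 48.8 and 60.1 CPM in controls (-2.27 ± 0.18), and the chitin deacetylases *serp* (-1.54) and *verm* (-1.36) followed.

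Of 15 midgut markers 3 were lower (20.0%, against 8.17% of all tested genes), and 1 to 5 with a library left out, 1 without copper replicate 3 or 4 and 5 without control replicate 4. *Vha100-4*, a proton pump subunit, was at 8.43, 6.09 and 7.58 CPM after copper, against 37.3, 33.3 and 13.9 CPM in controls (-1.94 ± 0.38, adjusted p = 0.0181), and lost its call without any one of the copper libraries or control replicate 1. *Ptx1* (-0.92) and *GATAe* (-0.68), transcription factors of the midgut, were the other 2. The median of the midgut markers was -0.27, and the summed level was 392 to 405 CPM after copper and 440 to 487 CPM in controls.

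Of 10 fat body markers 6 were lower, with a median of -1.57, and *bmm* was higher. *Lsp1beta*, a storage protein, was at 34.1, 24.8 and 39.6 CPM after copper, against 257, 141 and 226 CPM in controls (-2.66 ± 0.28, adjusted p = 0.00369), and its response was below that of the other strains by -2.47 ± 0.42 (adjusted p = 2.7e-04). *Lsp2* was at 79.3, 49.3 and 58.0 CPM after copper and 473, 247 and 129 CPM in controls (-2.19 ± 0.48), whereas its log2 response was 2.35 in AKA-018, 1.2 in MUN-008 and 1.66 in MUN-020. *apolpp* was at 834, 742 and 901 CPM against 2399, 1357 and 1814 CPM (-1.17 ± 0.21). The 6 decreases were 4 without control replicate 4, 2 in the 3 libraries with Y-linked transcripts near 0, and 1 without each of copper replicates 1, 3 and 4 in turn.

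Of 17 muscle markers 11 were lower (64.7%, against 8.17% of all tested genes) and none higher, with a median of -0.96, and 11 had a response below that of the other strains. *Mhc*, the muscle myosin heavy chain, was at 634, 502 and 520 CPM after copper, against 1263, 1252 and 1353 CPM in controls (-1.22 ± 0.10, adjusted p = 0.00206), while the 5 other strains gave responses of -0.71 to 0.47. *Prm*, the paramyosin gene, was at 205, 168 and 178 CPM after copper and 336, 328 and 453 CPM in controls (-1.02 ± 0.15). *Act79B* was at 142, 107 and 110 CPM against 232, 325 and 428 CPM (-1.45 ± 0.24). *Act88F*, the actin of the flight muscles, was at 311 CPM in control replicate 4 but at 44.9 and 48.6 CPM in the other controls, and did not pass the test (-2.75 ± 0.86, adjusted p = 0.0617). All but 1 of the 17 markers had their copper libraries below the controls (25.6% over all genes). The 11 calls were 4, 2 and 3 without copper replicates 1, 3 and 4, and 4 in the libraries with Y-linked transcripts near 0.

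Of 15 haemocyte markers 4 were lower (26.7%, against 8.17% of all tested genes), and 2 to 7 with a library left out. *Hml*, hemolectin, the clotting protein of plasmatocytes, was at 10.3, 9.89 and 6.91 CPM after copper, against 30.4, 18.4 and 19.1 CPM in controls (-1.32 ± 0.25, adjusted p = 0.0167). The genes of collagen IV, *vkg* and *Col4a1*, which fat body also expresses, were at 49.2, 45.4 and 48.6 CPM against 171, 125 and 136 CPM (-1.59 ± 0.12) and at 84.7, 84.9 and 84.1 CPM against 248, 191 and 204 CPM (-1.34 ± 0.10). *NimC1*, a phagocytosis receptor, had -0.97 ± 0.30 (adjusted p = 0.0581) and *PPO2*, a prophenoloxidase, -0.68 ± 0.25 (adjusted p = 0.0903), both below the controls without overlap. *vkg*, *Col4a1* and *Hml* each had a response below that of the other strains (adjusted p = 7.5e-05, 1.4e-04 and 5.7e-04). Neuron and photoreceptor markers had a median of -0.22, and 2 of 16 were lower, *Rh5* (-0.75) and *Rh6* (-0.58). That is 12.5%, near the 8.17% of all tested genes. Of 32 cuticle protein genes tested, 13 were lower (40.6%, against 8.17%) and none higher, among them *Cpr49Ab* at 2.65, 2.18 and 2.13 CPM after copper, against 13.2, 13.4 and 15.9 CPM in controls (-2.61 ± 0.14, adjusted p = 0.00074). Without one library, 6 to 14 cuticle genes were lower. Since the levels are shares of each library, the decreases of these tissues and the changes of others are not independent of each other.

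**Figure D5:**
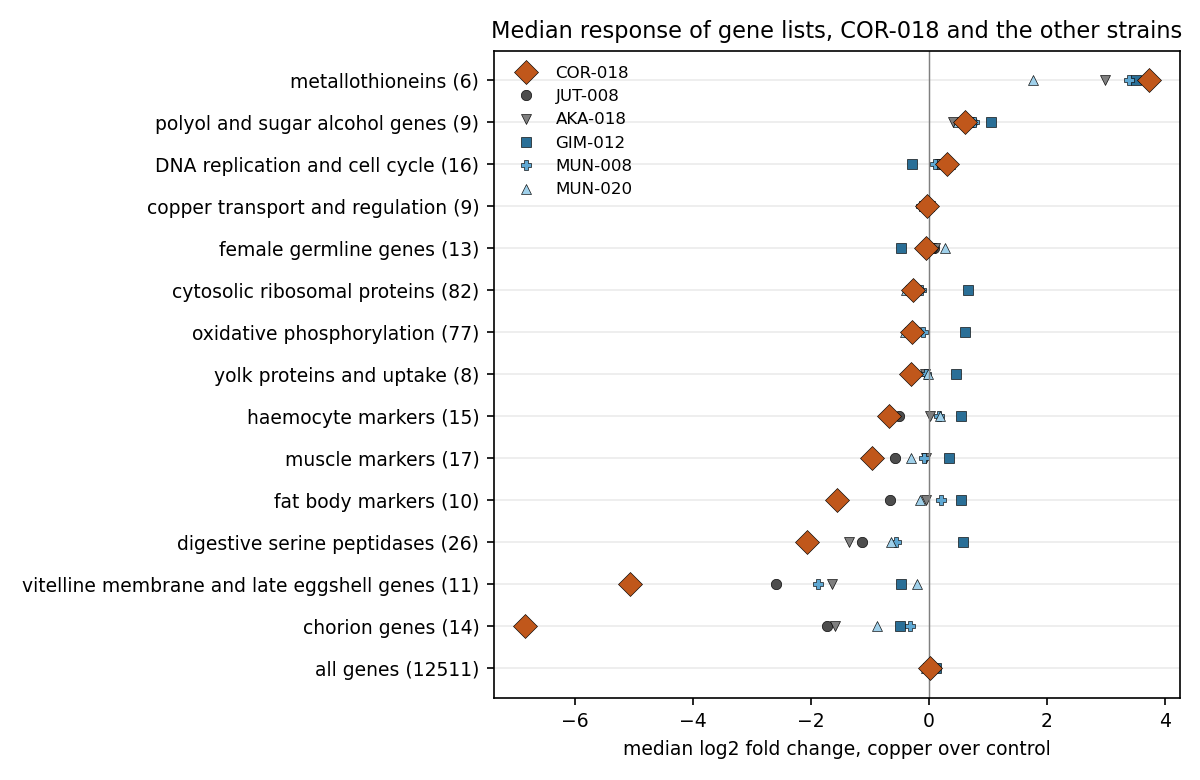
Median log2 fold change (copper over control) of each gene list in COR-018 (diamonds) and in the other 5 strains, from the model of all 34 libraries, with the number of genes tested in brackets. COR-018 lies farthest to the left for chorion genes (-6.85, the others -1.73 to -0.32), vitelline membrane genes, digestive peptidases, fat body, muscle and haemocyte markers, and farthest to the right for metallothioneins (3.73, the others 1.77 to 3.66).

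Some groups shifted by small amounts that few genes carried past the fold change. Of 81 cytosolic ribosomal protein genes 43 were lower by the adjusted p-value alone (15.0% over all genes), with a median of -0.26, and 1 also passed the fold change, *RpLP0*, though only control replicate 2 could be left out without loss of its call, at 1002, 998 and 1067 CPM after copper and 1728, 1332 and 1598 CPM in controls (-0.60 ± 0.10). Of 74 genes of oxidative phosphorylation 48 were lower by the adjusted p-value alone, with a median of -0.28. *SdhC*, a subunit of complex II, was at 99.3, 90.5 and 105 CPM after copper and 125, 127 and 126 CPM in controls (-0.36 ± 0.06). When library size replaced TMM, the median of all genes was 0.08, the medians of these groups were -0.20 and -0.22, and 313 genes (2.77%) were higher and 838 (7.41%) lower. The ribosomal median was between -0.39 and -0.14 in the other strains except GIM-012, where it was 0.66.

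Of 9 genes of the sugar alcohol pathway 5 were higher (55.6%, against 2.20% of all tested genes) and none lower in COR-018. Without copper replicate 1 or 4 the 5 were 3. Their list had a median of 0.61, and the medians of the other strains were 0.42 to 1.05. *Miox*, the myo-inositol oxygenase, was at 1094, 1033 and 1172 CPM after copper, against 264, 243 and 257 CPM in controls (2.11 ± 0.07, adjusted p = 0.00035), and exceeded the mean of the other strains by 0.69 ± 0.19 (adjusted p = 0.0203). The sorbitol dehydrogenases *Sodh1* and *Sodh2* were at 300, 227 and 293 CPM against 125, 130 and 71.7 CPM (1.33 ± 0.24) and at 61.0, 59.2 and 65.8 CPM against 34.8, 33.3 and 29.7 CPM (0.93 ± 0.08). *CG32444* was at 1137, 796 and 1232 CPM after copper and 589, 565 and 444 CPM in controls (0.99 ± 0.19), an increase that was smaller than the mean of the other strains by -0.83 ± 0.25 (adjusted p = 0.0364). *Sodh1* and *CG32444* lost their call without copper replicate 1 or 4. Copper replicate 3 was the lowest copper library in *Miox*, *Sodh1*, *Sodh2* and *CG32444*.

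The study drew up a set of 6 genes with opposite changes in the 2 classes of strains, from data that included these libraries, so their direction in COR-018 is no independent evidence. All 6 were lower in COR-018, with a median of -1.60, but 2, 3 and 3 of them without copper replicates 1, 3 and 4. *CG31091*, a lipase gene, was at 2, 2.07 and 2.29 CPM after copper, against 15.4, 24.6 and 42.0 CPM in controls (-3.69 ± 0.39). *NtR* was at 3.70, 2.95 and 2.16 CPM against 13.6, 6.65 and 6.56 CPM (-1.61 ± 0.37), and *lectin-24Db*, a C-type lectin, at 2.62, 2.26 and 2.03 CPM against 9.23, 5.02 and 3.67 CPM (-1.37 ± 0.36), and both lost their call without any one of the copper libraries. The median of the 6 was -0.84 in JUT-008 but 0.03 in AKA-018, also a sensitive strain, and 0.53 to 1.03 in the tolerant strains. The study also took forward 10 candidate genes from its transcriptomic data, which included these libraries, so their direction here is no independent evidence either. Some were chosen on differential expression alone, others for earlier links to copper or for associated transposable element insertions. Of the 10, 5 were higher and 2 lower in COR-018. *CG5773* was at 4.92, 4.73 and 4.21 CPM after copper, against 35.4, 21.8 and 29.8 CPM in controls (-2.65 ± 0.19, adjusted p = 0.00159), and *Jon65Aiv* is the other that fell.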

How the data were processed

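RNA was extracted from 20 whole females per library. Per the sample labels and the study's methods, the authors trimmed reads (Trim Galore 0.5.0, cutadapt 1.18), aligned them to dm6 with STAR 2.6 and deposited raw counts per gene from featureCounts 1.6.2, stranded, with reads of several places or several genes discarded. Counts of the 6 COR-018 libraries were analysed in R 4.3.3 with edgeR 4.0.16 (filterByExpr, TMM, glmQLFit and glmQLFTest), and p-values were adjusted by the Benjamini-Hochberg method over all tested genes. Strains were compared in one model of all 34 libraries. Adjusted p-values in the text are from these edgeR tests. The fit was tested on simulated data. Intervals and floors cover counting error only. The members and gene lists were chosen with earlier results of these data known. Genes were named by rule: the 10 largest called changes in each direction without overlap and with a mean of at least 5 CPM in a treatment, all metallothioneins, up to 4 members of each list by p and any member the study names, and the 5 lowest p-values in each direction of the strain comparison. The other genes of purine synthesis and one-carbon metabolism, *dec*, and further list members given as examples were picked after their values were seen. DESeq2 1.42.0, other scalings and filters, left-out libraries and a replicate block were tried.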

Additional observations from a re-analysis of the deposited data

Results flagged for a closer look

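The 10 genes below and several lists had a response in COR-018 that differed from the mean of the other 5 strains, by the contrast in the edgeR model of all 34 libraries. Below that mean were the chorion genes *Cp38* (log2 difference -10.948) and *Cp36* (-10.17), the unnamed genes *CG11381* (-10.689) and *CG4009* (-9.293), and *CG11892* (-2.477). *CG11892* was at 15.7, 13.3 and 14.6 CPM in the copper libraries of COR-018, against 307, 186 and 290 CPM in its control libraries, and its response in the other strains was -2.59 to -0.93, so its log2 response was negative in all 6 strains. Above the mean were *Bcat* (1.923), *CG11842* (1.711), *Mal-B2* (1.694), *Prat2* (1.667) and *Pfas* (1.268). *CG11842* was at 21.4, 26.4 and 22.4 CPM after copper and 5.48, 4.88 and 6.2 CPM in controls of COR-018, with responses of -0.16 to 1.16 elsewhere. Of the lists, 13 chorion genes, 8 vitelline membrane genes, 18 digestive serine peptidases and 11 muscle markers were below the other strains, and 1 metallothionein, *MtnE*, was above.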

How the results depend on the processing

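Of 135 named genes called in COR-018, 49 kept their call under each of the alternatives run on single genes (left-out libraries, other scalings, filters, dispersions and covariates, DESeq2 and the replicate block), none changed direction, and 86 lost it under at least 1, 56 of them under one other than the replicate block. None lost it with DESeq2. Genes higher and lower after copper numbered 1279 and 1699 with no fold-change threshold, 85 and 277 at a log2 fold change of 1.5, 140 and 366 in the 3 libraries with Y-linked transcripts near 0, and 113 to 323 and 417 to 1049 with 1 library left out. Genes with a response above and below the other strains numbered 85 and 259 against AKA-018 and JUT-008 alone, and 128 to 289 and 487 to 911 with a COR-018 library left out, and 136 were above without MUN-020. COR-018 treatments share only replicate numbers 1 and 4. Over 8559 genes the deviations from the treatment mean correlated at 0.014 for number 1 and -0.597 for number 4, so the numbers do not establish a pairing, and the replicate block gave 51 higher and 155 lower genes, and 39 above and 318 below the other strains. Some sums of male transcripts changed sign with single libraries. The log2 difference of copper from control, 0.591 for all 32 testis genes, 1.048 for Y-linked genes, 0.239 for *roX* RNAs and 0.537 for 18 accessory gland genes, was -0.132, -0.23, -0.189 and -0.356 without copper replicate 3, and for accessory gland genes -0.666 and -0.729 without control replicates 1 and 2. With each library left out in turn these differences lay between -0.132 and 1.538, -0.23 and 2.752, -0.189 and 0.681, and -0.729 and 3.006. The 29 testis genes (1.277, between 0.156 and 2.954) and all 23 accessory gland genes (-0.339, between -0.586 and -0.064) kept their sign. The cause of these changes was not tested. Fits without a library have fewer samples, and genes under about 1 CPM rest on few reads after copper.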

Other observations

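Genes of the Malpighian tubule, the excretory organ of the fly, were partly lower in COR-018, with 5 of 14 called lower (35.7%, against 8.17% of all tested genes), none higher and a median log2 fold change of -0.43. The 5 were 2 without any one of the copper libraries and 1 in the 3 libraries with Y-linked transcripts near 0. *Irk3*, a potassium channel, was at 21.3, 21 and 19.6 CPM after copper, against 56.7, 48.4 and 58.6 CPM in controls (-1.40 ± 0.09, adjusted p = 0.00117, edgeR). *Oatp58Db*, an organic anion transporter, was at 14.6, 13.8 and 15.6 CPM against 37.7, 24.7 and 35.1 CPM (-1.15 ± 0.16), and its response was below that of the other strains (adjusted p = 0.001). Of 33 UDP-glycosyltransferase genes, 7 were lower (21.2%) and 1 higher (3.03%, against 2.20% of all tested genes), and the 7 were 1 without copper replicate 1 or 3, 2 without copper replicate 4 and 3 without control replicate 1.

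Of 19 genes of insulin signalling and starvation, 3 were higher (15.8%, against 2.20% of all tested genes) and 3 lower (15.8%, against 8.17%). Without copper replicate 1 the 3 higher were 1, and without any one of the copper libraries the 3 lower were 1. The higher ones were *Gnmt*, *Thor* and *Desat1*, the fatty acid desaturase, at 2665, 2426 and 2634 CPM after copper, against 1934, 1546 and 1441 CPM in controls (0.65 ± 0.12), which lost its call without copper replicate 1 or 4 or control replicate 4. The lower ones were the sugar-responsive transcription factor *sug* (-1.53), the adipokinetic hormone receptor *AkhR* (-1.17) and the TGF-beta ligand *daw* (-1.16). *sug* was at 7, 6.86 and 8.3 CPM after copper, against 26.6, 17.5 and 20 CPM in controls. *Tsf1*, the iron carrier of the blood, was at 671, 572 and 734 CPM after copper, against 1821, 1537 and 861 CPM in controls (-1.09 ± 0.28, adjusted p = 0.0343), with control replicate 4 nearest to the copper libraries, and only control replicate 4 could be left out without loss of its call. None of 8 circadian clock genes and none of 36 proteasome genes was called with the fold change by edgeR or DESeq2. By edgeR's adjusted p-value alone 3 and 4 of them passed, against 26.3% of all tested genes. An unadjusted p-value below 0.05 was found for 6 and 10 of them, against 4832 of all 11306 tested genes.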
